A study of Mus musculus with 14 samples.

Results

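The genes described here encode splicing factors and hnRNPs, the proteins that assemble on precursor mRNA, mark its exons and build the spliceosome. They were taken by symbol from the deposited expression table, as all genes whose names begin with Srsf, Hnrnp, Snrp, Sf3a, Sf3b, U2af or Prpf, together with Lsm1 to Lsm8. The rule found 72 of the 10106 genes in the table and used no measured value. They comprised 11 SR proteins, 20 hnRNPs, 11 Sm and other snRNP proteins, 11 proteins of SF3a, SF3b and U2AF, 7 of the LSm ring and 12 PRPF proteins. A filter on a mean of at least 1 RPKM (reads scaled to gene length and to the size of the library) over all libraries kept 71 of them among 9793 genes. The SR protein gene Srsf12, at a mean of 0.643 RPKM, was removed.

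Poly(A) RNA was measured in 14 libraries of sorted CD8+ T cells from mouse spleen. The cells came from OTI donors, whose T cell receptor transgene recognises the SIINFEKL peptide of chicken ovalbumin (OVA), so they stand for a single receptor and not for a mixed repertoire. They entered CD45.2+ C57BL6j recipients on day 0, antigen (223 pmol) or saline was given by vein on day 1, and spleens were harvested on day 4. The sort took cells positive for CD3e, CD8 and CD45.1, the recipients kept their own lymphocytes, and the age label reads 8 to 12 weeks. The groups were ERY1-OVA, an ovalbumin form targeted to erythrocytes (3 libraries), soluble OVA (3 libraries), TER119-SIINFEKL, a peptide form targeted to erythrocytes (3 libraries), free SIINFEKL peptide (2 libraries) and Naive, the saline control for resting cells (3 libraries). All 5 groups thus shared the donor transgene, the transfer and the sort. The labels do not say which libraries came from separate mice, so the p-values below measure the spread between libraries only.

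An intron is removed by small nuclear ribonucleoproteins (snRNPs), each a short RNA held in a ring of Sm or LSm proteins, together with PRPF proteins that shape the catalytic core. U2AF and the SF3a and SF3b complexes recognise the end of the intron and its branch point. SR proteins mostly promote the use of nearby exons, while hnRNPs coat the transcript and often repress exons, and the balance between these families sets alternative splicing. In T cells the best known case is the skipping of variable exons of CD45 after activation, in which Hnrnpll takes part in mice and humans.

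Markers of the sorted cell type were high in every library, with Cd3d, Cd3e, Cd3g, Cd8a and Cd8b1 together at 1779 to 3028 RPKM, and Cd4 was between 0.182 and 1.31 RPKM. Of 6 B cell markers Cd79b alone was in the table, at 8.09 to 17.6 RPKM, and 4 of 9 myeloid and dendritic markers summed to 16.1 to 39.3 RPKM. Of 2 NK markers Klrb1c was in the table, at 2.51 to 14.7 RPKM, and of 8 erythroid markers Hba-a1 and Hba-a2 were, summing to 1.53 to 20.3 RPKM. OVA replicate 1 and TER119-SIINFEKL replicate 1 stood apart from the rest of their groups. Cd74, an MHC class II chain, was at 34.4 RPKM in OVA replicate 1 and 19.2 RPKM in TER119-SIINFEKL replicate 1, against 4.12 to 15.1 RPKM in the other 12 libraries, and the 4 MHC class II genes of the list summed to 6.37 to 68.3 RPKM. In both libraries long genes read low: ranked by exon length, the deviations of genes from their group mean correlated at -0.47 (OVA replicate 1) and -0.46 (TER119-SIINFEKL replicate 1). Other libraries deviated with length as well, with correlations from -0.33 in ERY1-OVA replicate 2 to 0.50 in TER119-SIINFEKL replicate 2, so these 2 libraries stand apart by Cd74 and not by length. The part of either feature in the results below was not tested. Counts with and without both libraries are given instead.

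The splicing genes were abundant in these cells. The median level of the 72 was 65.1 RPKM, against 13.7 RPKM over all 9793 genes, and individual levels averaged over the libraries ran up to 482 RPKM. The hnRNPs had a median of 119 RPKM, the Sm and other snRNP proteins 102 RPKM, SF3a, SF3b and U2AF 63.1 RPKM, the LSm ring 60.5 RPKM, the SR proteins 54.1 RPKM and the PRPF proteins 22.6 RPKM. Levels in RPKM are corrected for gene length, so these classes can be set side by side.

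Many splicing genes were higher in cells that had met ERY1-OVA, OVA or TER119-SIINFEKL than in Naive cells, and almost none were lower. A gene was called when its p-value from limma, adjusted by Benjamini-Hochberg over all 9793 genes, was under 0.05. After ERY1-OVA, 31 of 71 members were called higher and 0 lower, where 20.9% of all genes were higher and 19.0% lower. After OVA, 48 were higher and 0 lower, against 24.4% and 23.1% of all genes. After TER119-SIINFEKL, 39 were higher and 1, Prpf39, was lower, against 24.6% and 23.0% of all genes. With the replicate number as a block, 39 were higher and 2 lower (Prpf39 and Srsf5) in this last comparison. At an unadjusted p under 0.05 the numbers lower were 1 after ERY1-OVA, 0 after OVA and 2 after TER119-SIINFEKL. The median log2 fold change of the 71 members was 0.30 after ERY1-OVA, 0.49 after OVA and 0.41 after TER119-SIINFEKL, while over all genes it was -0.01, -0.04 and -0.0013 in the same order.

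SIINFEKL gave another picture. Only 3 members were called higher and 7 lower than in Naive cells, close to the 7.58% and 8.34% of all genes, with a member median of -0.14 against -0.01 over all genes. Without SIINFEKL replicate 1 these counts were 0 higher and 1 lower. In bulk RNA a larger share of cells carrying a transcript and more transcript per cell cannot be told apart. Markers of cycling cells also differed between the groups. The sum of Mki67, Top2a and Ccnb1 lay at 189.7 to 276 RPKM after ERY1-OVA, 207 to 285 after OVA, 142 to 243 after TER119-SIINFEKL, 13.8 to 60.6 after SIINFEKL and 6.43 to 9.16 RPKM in Naive cells. The part of cell division in the splicing gene levels was not tested.

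**Figure D1:**
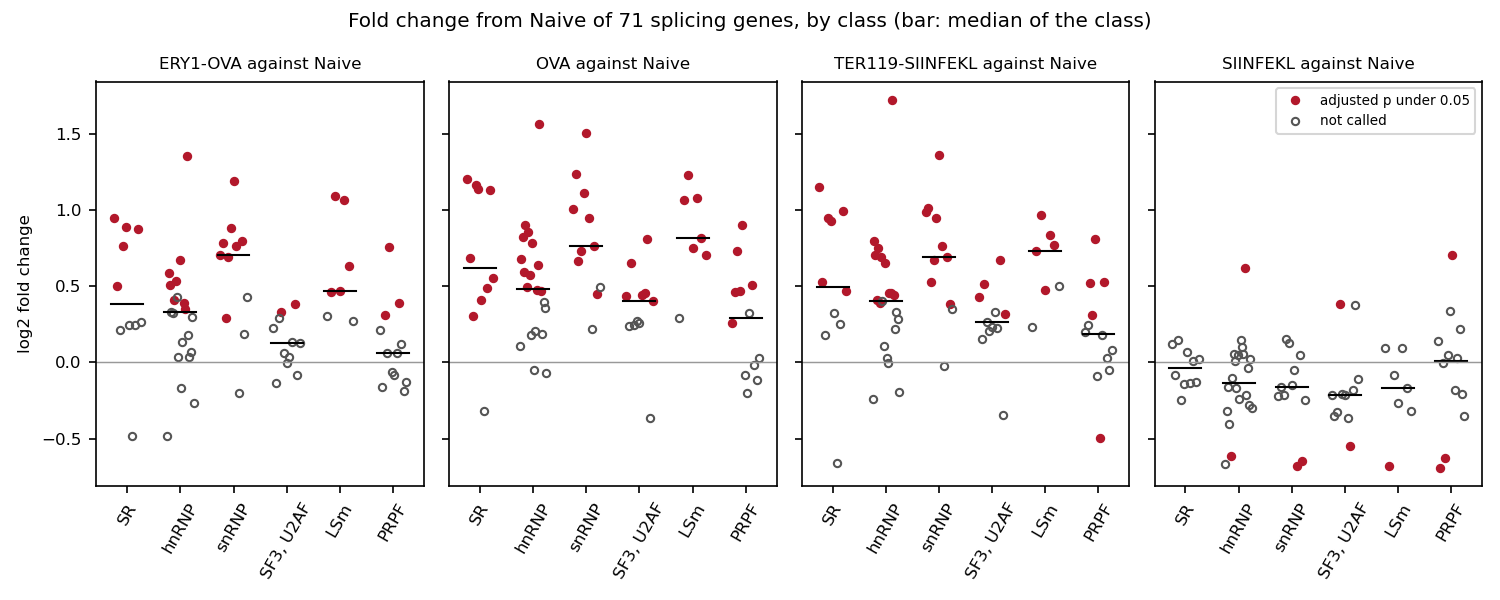
Log2 fold change from Naive (y axis) of the 71 tested splicing genes in 6 classes (x axis), with a panel for each antigen group. Filled points passed an adjusted p of 0.05, open points did not, and bars are class medians, which reach 0.82 for the LSm ring after OVA and stay at or below 0.01 in all 6 classes after SIINFEKL.

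The same 30 members were called higher in all 3 of these groups, 42.3% of those tested against 17.1% of all genes. They include Srsf1, Srsf2, Srsf3, Srsf7 and Srsf10, the hnRNP genes Hnrnpa1, Hnrnpa2b1 and Hnrnpll, and 8 snRNP protein genes. The 3 comparisons share the Naive libraries, so they are not independent of each other. Of the 30, Hnrnpll was also called higher after SIINFEKL and Lsm2 lower, and the other 28 were not called there. A further 20 members were called in none of the 4 comparisons with Naive, 28.2% of those tested against 38.0% of all genes. Among them were Prpf8, Prpf6, Hnrnpf, Hnrnpu, Snrpg and Srsf5.

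For 5 of the 30 the promoter is shown, because each had the strongest evidence of change over the 4 comparisons with Naive (moderated F statistic) in its class among genes with an entry in the RefSeq promoter table. The leader of the PRPF class, Prpf31, was not among the 30. The sequences are the 250 bases before the transcription start from RefSeq, build GRCm38.p6, 5′ to 3′ on the strand of the gene. Capitals mark motifs found by letter search on both strands, namely the GC box (GGGCGG), the CCAAT box (CCAAT) and the second of a pair of E2F forms searched (TTTCCCGC). The positions are chr11:88047123-88047372 on the plus strand for Srsf1, chr15:103240147-103240396 on the plus strand for Hnrnpa1, chr7:66060086-66060335 on the plus strand for Snrpa1, chr17:31658765-31659014 on the minus strand for U2af1 and chr17:34981604-34981853 on the plus strand for Lsm2. The RefSeq starts of Snrpa1 and U2af1 lie within the gene spans given for them below, which come from another annotation and begin farther upstream, so these stretches precede a RefSeq start and not the first base of the span.
Srsf1 promoter: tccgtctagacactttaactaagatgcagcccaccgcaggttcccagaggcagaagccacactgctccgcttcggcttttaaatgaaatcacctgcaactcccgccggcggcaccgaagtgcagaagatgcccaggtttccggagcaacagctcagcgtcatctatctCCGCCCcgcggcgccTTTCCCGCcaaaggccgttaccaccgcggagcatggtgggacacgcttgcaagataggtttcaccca
Hnrnpa1 promoter: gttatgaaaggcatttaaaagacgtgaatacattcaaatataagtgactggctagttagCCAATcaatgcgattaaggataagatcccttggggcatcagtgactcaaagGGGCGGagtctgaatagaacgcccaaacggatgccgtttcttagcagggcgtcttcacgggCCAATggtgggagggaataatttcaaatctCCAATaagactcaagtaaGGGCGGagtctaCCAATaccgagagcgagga
Snrpa1 promoter: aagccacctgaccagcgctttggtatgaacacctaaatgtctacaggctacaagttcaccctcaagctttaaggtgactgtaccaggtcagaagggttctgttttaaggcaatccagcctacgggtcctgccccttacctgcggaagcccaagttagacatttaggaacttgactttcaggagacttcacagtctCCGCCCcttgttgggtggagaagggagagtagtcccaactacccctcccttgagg
U2af1 promoter: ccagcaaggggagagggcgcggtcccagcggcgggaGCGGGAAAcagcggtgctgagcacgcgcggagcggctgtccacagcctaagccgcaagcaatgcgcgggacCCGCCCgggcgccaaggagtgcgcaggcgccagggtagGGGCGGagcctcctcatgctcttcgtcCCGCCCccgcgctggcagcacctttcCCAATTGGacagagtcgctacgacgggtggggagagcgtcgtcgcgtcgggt
Lsm2 promoter: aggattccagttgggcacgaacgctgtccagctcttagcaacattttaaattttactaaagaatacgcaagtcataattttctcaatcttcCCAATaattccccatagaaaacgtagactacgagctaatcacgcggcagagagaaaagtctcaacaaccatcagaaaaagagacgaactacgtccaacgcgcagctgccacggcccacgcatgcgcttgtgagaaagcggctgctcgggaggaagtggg

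These 5 promoters differed in the motifs they held. Srsf1 and U2af1 each hold the E2F letters once, Hnrnpa1 holds 4 CCAAT boxes, Snrpa1 holds a lone GC box and Lsm2 a lone CCAAT box. In U2af1, 2 CCAAT matches on opposite strands overlap each other. Of the 72 members 61 matched the table, and 60 of these were tested. Among those 60 the ETS core (CCGGAAG) was present in 28.3%, against 16.3% of 7327 tested genes with an entry and 6.91% of all 32851 promoters. The GC box was present in 65.0%, against 61.0% and 32.7%, the CCAAT box in 46.7%, against 37.7% and 33.8%, and the E2F form in 6.67%, against 2.06% and 0.895%. The other motifs searched were the E-box (CACGTG, 6.67% of members against 8.98% of tested genes), the TATA box (TATAAA, 8.33% against 5.73%), the first E2F form (TTTGGCGC, 0% against 0.983%) and the NRF1 site (0% against 1.94%). A match here is a run of letters, and binding was not measured.

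SR proteins bind exonic enhancers and, in part, carry mRNA out of the nucleus. Of 10 tested SR genes, 5 were called higher after ERY1-OVA, 9 after OVA, 6 after TER119-SIINFEKL and 0 after SIINFEKL. Over all genes 20.9%, 24.4%, 24.6% and 7.58% were called higher in the same order. Limma called 0 SR genes lower. At an unadjusted p under 0.05, 0 were higher after SIINFEKL, and 1 was lower after TER119-SIINFEKL and 0 in the other 3 comparisons. Srsf1 (ENSMUSG00000018379, chr11:88047373-88053755, plus strand) encodes the prototype of the family, which helps U1 snRNP to find the start of an intron. Srsf1 had 142, 116 and 104 RPKM in the ERY1-OVA libraries, 137, 133 and 158 in OVA, 127, 151 and 137 in TER119-SIINFEKL, 72.8 and 62.0 in SIINFEKL and 57.7, 70.1 and 58.6 in Naive. All 9 libraries of the ERY1-OVA, OVA and TER119-SIINFEKL groups lay above every SIINFEKL and Naive library, and the SIINFEKL and Naive ranges overlapped. The log2 fold changes from Naive were 0.95 ± 0.13 after ERY1-OVA (SE, adjusted p = 0.0001), 1.20 ± 0.13 after OVA (1.1e-05), 1.16 ± 0.13 after TER119-SIINFEKL (1.5e-05) and 0.12 ± 0.15 after SIINFEKL (0.62).

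Srsf2 and Srsf3 encode further shuttling or nuclear SR proteins and stood apart in the same way. The level of Srsf2 was 143, 138 and 167 RPKM after ERY1-OVA, 197, 184 and 209 after OVA, 139.6, 190.3 and 183 after TER119-SIINFEKL, 90.2 and 60.4 after SIINFEKL and 93.3, 80.1 and 90.0 in Naive cells. The lowest value among the ERY1-OVA, OVA and TER119-SIINFEKL libraries exceeded the highest among the others. For Srsf3 the libraries gave 157, 195 and 192 RPKM (ERY1-OVA), 275, 168 and 213 (OVA), 213, 170.0 and 175 (TER119-SIINFEKL), 106 and 73.2 (SIINFEKL) and 101, 99.1 and 91.5 (Naive). OVA replicate 1 was the highest library for Srsf3, and SIINFEKL replicate 2 the lowest. Srsf2 rose by 0.76 ± 0.15 after ERY1-OVA, 1.16 ± 0.15 after OVA and 0.95 ± 0.15 after TER119-SIINFEKL, and Srsf3 by 0.89 ± 0.18, 1.14 ± 0.18 and 0.93 ± 0.18 in the same order (log2, SE). Srsf7, whose product links splicing to mRNA export, rose by 0.88 ± 0.23 after ERY1-OVA, 1.13 ± 0.23 after OVA and 1.00 ± 0.23 after TER119-SIINFEKL. Srsf7 had 50.7, 66.8 and 56.2 RPKM in the ERY1-OVA libraries, 101, 49.3 and 65.1 in OVA, 73.0, 56.6 and 58.5 in TER119-SIINFEKL, 35.3 and 23.2 in SIINFEKL and 35.9, 29.5 and 28.9 in Naive. OVA replicate 1 stood far above the other OVA libraries, and every library of the first 3 groups lay above every SIINFEKL and Naive library.

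The remaining SR genes moved less. Srsf10, whose product represses splicing when dephosphorylated, rose by 0.50 after ERY1-OVA, 0.69 after OVA and 0.53 after TER119-SIINFEKL. Among the 10 tested SR genes, Srsf5 was the 1 whose log2 fold change was negative in all 4 comparisons, between -0.66 after TER119-SIINFEKL and -0.14 after SIINFEKL, and none of these passed the test (smallest adjusted p = 0.087). With the replicate block it was called lower after TER119-SIINFEKL (-0.66, adjusted p = 0.037). The level of Srsf5 was 103, 93.1 and 165 RPKM after ERY1-OVA, 105, 148 and 144 after OVA, 72.5, 120.4 and 125 after TER119-SIINFEKL, 137 and 160.1 after SIINFEKL and 174, 102 and 245 in Naive cells. The 3 Naive values of Srsf5 were farther apart than the group means. The removed gene Srsf12 had 0.590, 0.663 and 0.693 RPKM after ERY1-OVA, 0.494, 0.275 and 0.397 after OVA, 0.444, 0.534 and 0.516 after TER119-SIINFEKL, 0.872 and 0.668 after SIINFEKL and 0.913, 1.20 and 0.746 in Naive cells.

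**Figure D2:**
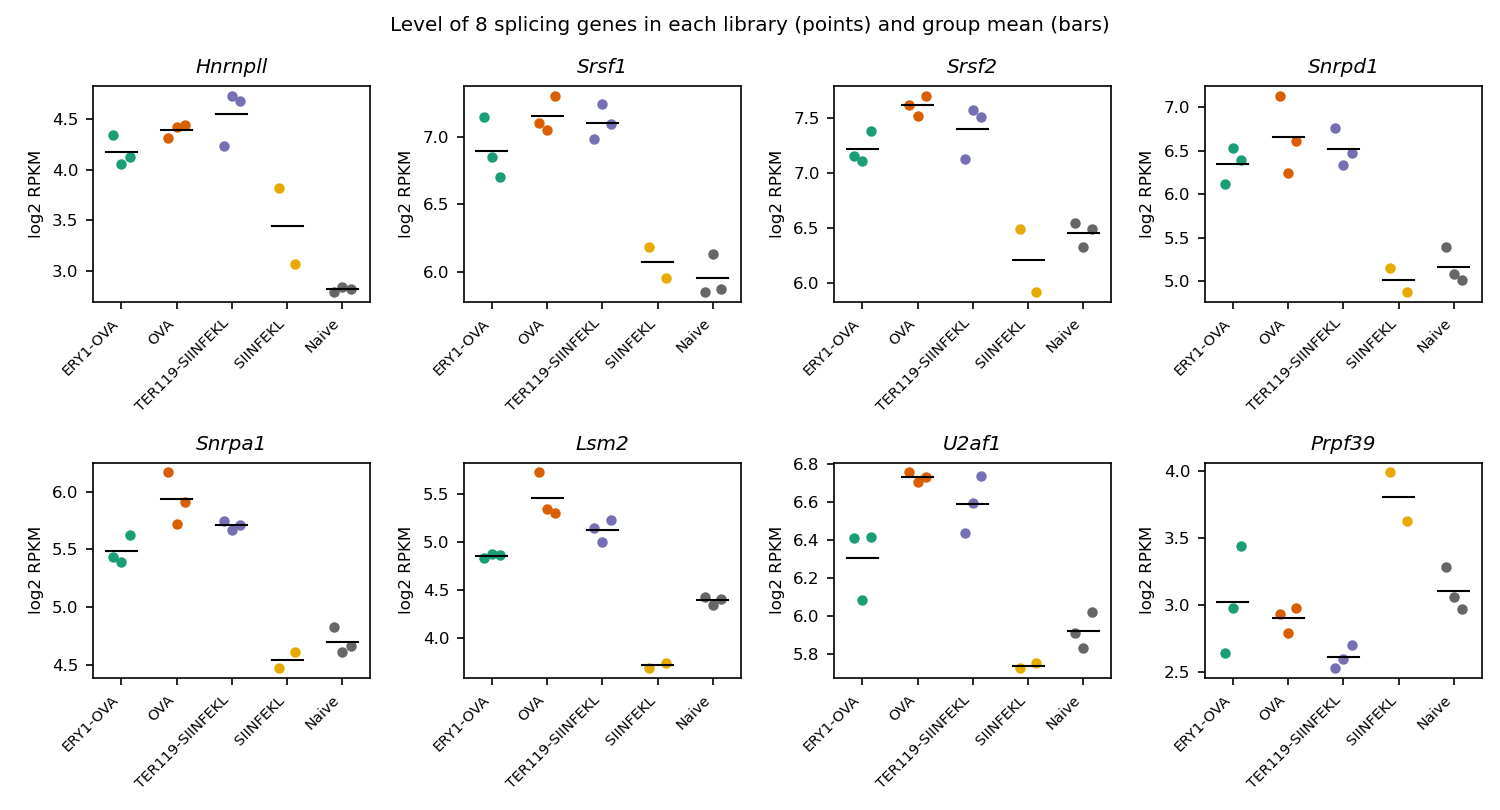
Level in log2 RPKM (y axis) of 8 splicing genes in each library (points) by group (x axis), with group means as bars. For Hnrnpll, Srsf1, Srsf2, Snrpd1, Snrpa1, Lsm2 and U2af1 every library of the first 3 groups lies above every Naive library, while Prpf39 is highest in the 2 SIINFEKL libraries.

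Among 20 hnRNP genes, 8 were called higher after ERY1-OVA, 12 after OVA, 11 after TER119-SIINFEKL and 1 after SIINFEKL. The shares of all genes were 20.9%, 24.4%, 24.6% and 7.58% in the same order, so the count after SIINFEKL lies near the background. The 1 called lower in these 4 comparisons was Hnrnpab after SIINFEKL, where 8.34% of all genes were lower. With quantile normalization 4 were higher and 1 lower after ERY1-OVA, 8 were higher after OVA and 7 after TER119-SIINFEKL. Hnrnpll (ENSMUSG00000024095, chr17:80029487-80062334, minus strand), which encodes the regulator of CD45 exon skipping, had the largest rise of all 71 members after ERY1-OVA, OVA and TER119-SIINFEKL. Hnrnpll had 20.3, 16.6 and 17.4 RPKM in the ERY1-OVA libraries, 19.8, 21.5 and 21.7 in OVA, 18.9, 26.5 and 25.5 in TER119-SIINFEKL, 14.1 and 8.41 in SIINFEKL and 6.94, 7.17 and 7.08 in Naive. The 3 Naive libraries were nearly equal and lay below all the others, and SIINFEKL replicate 1 stood well above SIINFEKL replicate 2. The log2 fold changes were 1.35 ± 0.17 after ERY1-OVA (SE, adjusted p = 4.7e-05), 1.57 ± 0.17 after OVA (1.1e-05), 1.72 ± 0.17 after TER119-SIINFEKL (4.8e-06) and 0.62 ± 0.19 after SIINFEKL (0.043). The call after SIINFEKL was lost without SIINFEKL replicate 1 (0.25), without any 1 Naive library (0.61 to 0.63), and without OVA replicate 2 or 3, ERY1-OVA replicate 2 or 3 or TER119-SIINFEKL replicate 3 (0.62 each).

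Hnrnpa1 and Hnrnpa2b1 encode 2 of the most abundant hnRNPs, which bind silencer elements in exons and introns. The level of Hnrnpa1 was 469, 414 and 464 RPKM after ERY1-OVA, 453, 465 and 524 after OVA, 483, 547 and 528 after TER119-SIINFEKL, 256 and 224 after SIINFEKL and 289.9, 297 and 310.3 in Naive cells. Both SIINFEKL libraries lay below every Naive library, and the other 9 lay above. For Hnrnpa2b1 the libraries gave 498, 368 and 416 RPKM (ERY1-OVA), 499, 501 and 589 (OVA), 458, 494 and 512 (TER119-SIINFEKL), 250.1 and 283 (SIINFEKL) and 302, 305 and 289 (Naive). Here too both SIINFEKL libraries lay below every Naive library. Hnrnpa1 rose by 0.58 ± 0.11 after ERY1-OVA, 0.68 ± 0.11 after OVA and 0.80 ± 0.11 after TER119-SIINFEKL, and Hnrnpa2b1 by 0.51 ± 0.12, 0.82 ± 0.12 and 0.71 ± 0.12 in the same order. After SIINFEKL the fold changes were -0.32 ± 0.12 for Hnrnpa1 (adjusted p = 0.084) and -0.16 ± 0.14 for Hnrnpa2b1 (0.45). Reads of Hnrnpa1 can be shared with its processed pseudogenes, so its level is uncertain. The call for Hnrnpa2b1 after ERY1-OVA was lost with quantile normalization (0.37).

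Hnrnpl, a close relative of Hnrnpll that binds CA repeats, moved less than Hnrnpll. Hnrnpl had 139.8, 136 and 155 RPKM in the ERY1-OVA libraries, 181, 170.2 and 173 in OVA, 143, 153 and 168 in TER119-SIINFEKL, 117 and 116 in SIINFEKL and 110.0, 111 and 116 in Naive. Its OVA libraries were the highest and its SIINFEKL libraries lay just above the Naive ones. The rises were 0.35 ± 0.09 after ERY1-OVA, 0.64 ± 0.09 after OVA and 0.46 ± 0.09 after TER119-SIINFEKL, and the first was lost with quantile normalization (0.21). Hnrnpc, which binds uridine tracts, rose by 0.49 ± 0.14 after OVA, with all its OVA libraries above all Naive ones (197, 145 and 162 against 133, 109 and 114 RPKM), and this call too was lost with quantile normalization (0.23). Hnrnpu, a chromatin-associated scaffold protein, was not called against Naive, with fold changes between -0.28 after SIINFEKL and 0.40 after OVA. Hnrnpf, which binds guanine tracts, was among the most abundant members and was not called. The level of Hnrnpf was 513, 459 and 460.4 RPKM after ERY1-OVA, 513, 515 and 553 after OVA, 492, 486 and 524 after TER119-SIINFEKL, 359 and 479.6 after SIINFEKL and 466, 473 and 457 in Naive cells. The ERY1-OVA and Naive ranges overlapped, the OVA and TER119-SIINFEKL libraries lay just above Naive, and SIINFEKL replicate 1 was the lowest library.

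The Sm and other snRNP protein genes had the highest class median after ERY1-OVA. Of 11 genes, 8 were called higher after ERY1-OVA, 9 after OVA and 9 after TER119-SIINFEKL, and 2 were called lower after SIINFEKL (Snrpd3 and Snrpf). Of all genes 20.9%, 24.4% and 24.6% were higher in the first 3 comparisons, and 8.34% were lower after SIINFEKL. The class medians were 0.70 after ERY1-OVA, 0.77 after OVA, 0.69 after TER119-SIINFEKL and -0.16 after SIINFEKL. Snrpd1 (ENSMUSG00000002477, chr18:10617775-10642079, plus strand) encodes a protein of the Sm ring that all spliceosomal snRNPs of the U1, U2, U4 and U5 kind share. Snrpd1 had 69.4, 92.6 and 84.4 RPKM in the ERY1-OVA libraries, 140.4, 75.9 and 97.9 in OVA, 108, 80.7 and 88.9 in TER119-SIINFEKL, 35.6 and 29.3 in SIINFEKL and 42.0, 33.8 and 32.2 in Naive. Every library of the first 3 groups exceeded the SIINFEKL and Naive ranges, and OVA replicate 1 was the highest. It rose by 1.19 ± 0.20 after ERY1-OVA (SE, adjusted p = 0.00044), 1.50 ± 0.20 after OVA (5.4e-05) and 1.36 ± 0.20 after TER119-SIINFEKL (0.00011), with -0.15 ± 0.22 after SIINFEKL (0.69).

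Snrpa1 (ENSMUSG00000030512, chr7:66059003-66074587, plus strand) encodes a protein specific to U2 snRNP. The level of Snrpa1 was 43.4, 42.0 and 49.3 RPKM after ERY1-OVA, 72.0, 52.8 and 60.2 after OVA, 53.7, 51.0 and 52.3 after TER119-SIINFEKL, 22.1 and 24.4 after SIINFEKL and 28.4, 24.4 and 25.3 in Naive cells. Both SIINFEKL libraries lay below every Naive library, the nearest by a small margin, and all others were higher. Its rises were 0.79 ± 0.12 after ERY1-OVA, 1.24 ± 0.12 after OVA and 1.01 ± 0.12 after TER119-SIINFEKL. Snrpa encodes a U1 snRNP protein. For Snrpa the libraries gave 79.6, 65.2 and 68.1 RPKM (ERY1-OVA), 79.8, 94.0 and 88.5 (OVA), 77.7, 89.6 and 91.4 (TER119-SIINFEKL), 42.5 and 32.6 (SIINFEKL) and 40.8, 41.0 and 48.8 (Naive). Here the SIINFEKL libraries and the Naive libraries overlapped at the bottom. It rose by 0.70 ± 0.13 after ERY1-OVA, 1.01 ± 0.13 after OVA and 0.99 ± 0.13 after TER119-SIINFEKL. Snrpc, another U1 protein gene, rose by 0.88, 1.11 and 0.95 in the same order. Snrpb, which encodes the Sm proteins B and B′, rose by 0.66 ± 0.11 after OVA (293, 255 and 249 RPKM against 169.9, 161 and 171 RPKM in Naive cells) and by 0.53 ± 0.11 after TER119-SIINFEKL. Snrpg was called in none of the 4 comparisons, and its libraries spread widely within groups, from 409.6 to 723 RPKM after OVA and from 282 to 404 RPKM in Naive cells. Snrpg and Snrpe have processed pseudogenes, and Snrpa1 overlaps the annotated gene Gm45213 on its own strand, so reads could be divided there.

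SF3a, SF3b and U2AF define the end of the intron. Of 11 genes, 2 were called higher after ERY1-OVA, 6 after OVA, 4 after TER119-SIINFEKL and 1 after SIINFEKL, where Sf3b5 was called lower. The 2 of 11 after ERY1-OVA stand beside 20.9% of all genes, the 6 after OVA beside 24.4% and the 4 after TER119-SIINFEKL beside 24.6%. After SIINFEKL 7.58% of all genes were higher and 8.34% lower. With quantile normalization 0 were higher after ERY1-OVA, 2 after OVA, where 1 was lower, and 2 after TER119-SIINFEKL. The class median after ERY1-OVA was then -0.04, against 0.13 without it. U2af1 (ENSMUSG00000061613, chr17:31647081-31658892, minus strand) encodes the subunit that reads the last bases of the intron. U2af1 had 85.2, 67.9 and 85.3 RPKM in the ERY1-OVA libraries, 108, 104 and 106 in OVA, 86.7, 96.6 and 107 in TER119-SIINFEKL, 52.8 and 53.8 in SIINFEKL and 59.97, 56.8 and 64.8 in Naive. The OVA libraries were tightly grouped, TER119-SIINFEKL replicate 3 reached their range, and the SIINFEKL libraries lay below all others. It rose by 0.81 ± 0.11 after OVA (SE, adjusted p = 6.6e-05) and 0.67 ± 0.11 after TER119-SIINFEKL (0.00027). The change of 0.39 ± 0.11 after ERY1-OVA passed (0.014) but lost its call without ERY1-OVA replicate 3 (0.33), without Naive replicate 2 (0.34) and with quantile normalization (0.26).

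U2af2, which encodes the partner that binds the polypyrimidine tract, moved by smaller amounts. The level of U2af2 was 148, 139 and 151 RPKM after ERY1-OVA, 170.4, 181 and 177 after OVA, 154, 165 and 180.3 after TER119-SIINFEKL, 121 and 126 after SIINFEKL and 136, 132 and 133 in Naive cells. OVA and TER119-SIINFEKL overlapped at the top, and the SIINFEKL libraries lay just under the Naive ones. It rose by 0.40 ± 0.09 after OVA and 0.32 ± 0.09 after TER119-SIINFEKL, and both calls were lost with quantile normalization (0.13 and 0.10). The call after TER119-SIINFEKL was also lost without TER119-SIINFEKL replicate 3 (0.26). Sf3a3, a subunit of the SF3a complex, rose by 0.65 ± 0.12 after OVA and 0.52 ± 0.12 after TER119-SIINFEKL. For Sf3a3 the libraries gave 46.9, 42.2 and 38.9 RPKM (ERY1-OVA), 55.7, 49.7 and 58.8 (OVA), 49.3, 49.6 and 50.3 (TER119-SIINFEKL), 25.6 and 30.1 (SIINFEKL) and 32.0, 41.1 and 31.9 (Naive). Every OVA and TER119-SIINFEKL library exceeded every Naive library, and the SIINFEKL libraries were again below Naive. Sf3a1 rose by 0.43 ± 0.14 after OVA, lost without OVA replicate 2 (0.39), OVA replicate 3 or Naive replicate 1 (0.37 and 0.37) and with quantile normalization (0.31).

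The LSm ring holds the end of U6 RNA when it contains Lsm8 and takes part in mRNA decapping in the cytoplasm when it contains Lsm1. Of 7 genes measured, 5 were called higher after ERY1-OVA, 6 after OVA and 5 after TER119-SIINFEKL, and Lsm2 was called lower after SIINFEKL. Over all genes, 20.9% were called higher after ERY1-OVA, 24.4% after OVA and 24.6% after TER119-SIINFEKL. After SIINFEKL 8.34% of all genes were called lower, so the count of 1 in 7 there lies near the background. The class medians were 0.47 after ERY1-OVA, 0.82 after OVA and 0.74 after TER119-SIINFEKL. Lsm2 (ENSMUSG00000007050, chr17:34981862-34985891, plus strand) belongs to both rings. Lsm2 had 28.5, 29.5 and 29.2 RPKM in the ERY1-OVA libraries, 53.1, 40.7 and 39.5 in OVA, 35.5, 32.1 and 37.6 in TER119-SIINFEKL, 12.9 and 13.4 in SIINFEKL and 21.5, 20.4 and 21.2 in Naive. The order was OVA, TER119-SIINFEKL, ERY1-OVA, Naive and SIINFEKL from high to low, with no overlap between neighbouring groups. These are ranges of 2 or 3 libraries. Lsm2 was not called in ERY1-OVA against TER119-SIINFEKL, and OVA was not compared with TER119-SIINFEKL. The fold changes from Naive were 0.47 ± 0.11 after ERY1-OVA (SE, adjusted p = 0.0054), 1.06 ± 0.11 after OVA (7.7e-06), 0.74 ± 0.11 after TER119-SIINFEKL (0.00016) and -0.68 ± 0.13 after SIINFEKL (0.0037), and each held in every alternative.

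Lsm3 and Lsm6 also belong to both rings. The level of Lsm3 was 56.5, 88.3 and 80.8 RPKM after ERY1-OVA, 105, 67.6 and 75.2 after OVA, 76.9, 59.0 and 67.7 after TER119-SIINFEKL, 34.5 and 30.7 after SIINFEKL and 41.5, 29.9 and 33.2 in Naive cells. OVA replicate 1 was the highest library for Lsm3, and SIINFEKL lay within the Naive range. For Lsm6 the libraries gave 19.4, 20.1 and 21.7 RPKM (ERY1-OVA), 24.2, 21.8 and 23.9 (OVA), 24.1, 21.6 and 21.9 (TER119-SIINFEKL), 11.9 and 11.5 (SIINFEKL) and 13.3, 13.4 and 12.7 (Naive). Lsm6 varied little within groups. Lsm3 rose by 1.10 ± 0.19 after ERY1-OVA, 1.23 ± 0.19 after OVA and 0.97 ± 0.19 after TER119-SIINFEKL, and Lsm6 by 0.63 ± 0.09, 0.82 ± 0.09 and 0.77 ± 0.09 in the same order. Lsm4 was higher as well, at 161, 133 and 120.2 RPKM after OVA against 82.7, 73.9 and 88.2 RPKM in Naive cells. Lsm1, which is found in the cytoplasmic ring only, was not called in any comparison with Naive, with fold changes of 0.31 ± 0.20 after ERY1-OVA, 0.29 ± 0.20 after OVA, 0.23 ± 0.20 after TER119-SIINFEKL and 0.10 ± 0.22 after SIINFEKL. Whether Lsm1 differs from the other LSm genes was not tested.

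PRPF proteins gave the most divided class. Of 12 genes, 3 were called higher after ERY1-OVA, 6 after OVA, 4 after TER119-SIINFEKL and 1 after SIINFEKL, and Prpf39 (after TER119-SIINFEKL) and Prpf19 and Prpf31 (after SIINFEKL) were called lower. Over all genes the shares called higher were 20.9%, 24.4%, 24.6% and 7.58% in the same order, so the PRPF counts after ERY1-OVA, TER119-SIINFEKL and SIINFEKL lie near the background. Prpf31 (ENSMUSG00000008373, chr7:3629985-3642486, plus strand) encodes a protein that joins U4 and U6 to U5 snRNP. Prpf31 had 18.3, 18.7 and 21.0 RPKM in the ERY1-OVA libraries, 24.0, 27.1 and 25.7 in OVA, 21.0, 23.8 and 24.1 in TER119-SIINFEKL, 10.6 and 13.5 in SIINFEKL and 17.4, 18.03 and 20.2 in Naive. The OVA libraries were above, and the SIINFEKL libraries below, all Naive libraries. Its change after OVA was 0.47 ± 0.12 (adjusted p = 0.005). Prpf19 encodes the ubiquitin ligase of the activated spliceosome. The level of Prpf19 was 21.8, 19.3 and 22.3 RPKM after ERY1-OVA, 29.8, 33.4 and 34.1 after OVA, 26.1, 26.8 and 31.1 after TER119-SIINFEKL, 11.8 and 17.9 after SIINFEKL and 22.7, 22.4 and 25.5 in Naive cells. The ERY1-OVA libraries lay just under the Naive ones, the OVA and TER119-SIINFEKL libraries above and the SIINFEKL libraries below. Prpf19 rose by 0.46 ± 0.14 after OVA, a call lost without OVA replicate 3 (0.42) or Naive replicate 2 (0.42).

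Prpf3, a partner of Prpf31 in the U4 and U6 particle, rose by 0.73 ± 0.12 after OVA and 0.52 ± 0.12 after TER119-SIINFEKL. For Prpf3 the libraries gave 14.6, 13.0 and 14.3 RPKM (ERY1-OVA), 19.9, 17.4 and 18.7 (OVA), 15.9, 16.2 and 16.2 (TER119-SIINFEKL), 12.2 and 10.3 (SIINFEKL) and 10.7, 13.2 and 10.0 (Naive). Its OVA and TER119-SIINFEKL libraries all lay above the Naive ones. Prpf38a, needed for spliceosome activation, rose by 0.76 after ERY1-OVA, 0.90 after OVA and 0.81 after TER119-SIINFEKL. Prpf8, the largest protein at the catalytic centre, was not called, and its fold changes ran from -0.35 after SIINFEKL to 0.08 after TER119-SIINFEKL. Prpf8 had 87.0, 55.4 and 57.5 RPKM in the ERY1-OVA libraries, 57.1, 81.2 and 82.8 in OVA, 61.1, 88.3 and 79.5 in TER119-SIINFEKL, 49.6 and 62.5 in SIINFEKL and 65.0, 78.5 and 70.6 in Naive. Single libraries of Prpf8 differed within a group by as much as the group means.

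The 10 members called after SIINFEKL fell in 5 of the 6 classes, and few of these calls stood firm. Higher were Hnrnpll (given above), Prpf39 (0.71 ± 0.20, adjusted p = 0.028) and Sf3b1, the largest SF3b subunit, at 0.39 ± 0.12 (0.048). For Sf3b1 the libraries gave 95.9, 84.3 and 104 RPKM (ERY1-OVA), 83.9, 87.6 and 96.0 (OVA), 85.2, 92.5 and 93.7 (TER119-SIINFEKL), 107 and 89.8 (SIINFEKL) and 72.8, 81.8 and 70.9 (Naive). All groups were above Naive on average for Sf3b1. Lower were Lsm2, Prpf19 (-0.69 ± 0.16, 0.011), Snrpd3 (-0.68 ± 0.17, 0.018), Snrpf (-0.64 ± 0.12, 0.0044), Prpf31 (-0.63 ± 0.13, 0.0066), Hnrnpab (-0.61 ± 0.19, 0.043) and Sf3b5 (-0.55 ± 0.17, 0.041). Without SIINFEKL replicate 1 only Lsm2 remained called among the 10, and the values were 0.52 for Prpf39, 0.26 for Sf3b1, -0.39 for Prpf19, -0.42 for Snrpd3, -0.45 for Prpf31, -0.34 for Hnrnpab, -0.57 for Snrpf and -0.52 for Sf3b5. The number higher was also 0 without Naive replicate 3, and 1 without Naive replicate 1 or 2, OVA replicate 2 or 3 or TER119-SIINFEKL replicate 3. The number lower was 4 without Naive replicate 1. Prpf39 was lost without Naive replicate 2 (0.68) or 3 (0.64) as well, Snrpd3 without Naive replicate 1 (-0.61), and Sf3b1, Hnrnpab and Sf3b5 without any of several single libraries. Snrpd3 had 93.0 and 134 RPKM after SIINFEKL and 196, 164 and 178 RPKM in Naive cells, so the libraries did not overlap although the SIINFEKL pair was far apart.

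Across the 5 groups, OVA most often had the highest mean and SIINFEKL the lowest. The OVA mean was the highest of the 5 in 55 of 71 members (77.5%), against 23.4% of all genes. The SIINFEKL mean was the lowest in 44 members (62.0%), against 25.0% of all genes. The Naive mean was the lowest in 21 (29.6%), near the 26.3% of all genes.

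**Figure D3:**
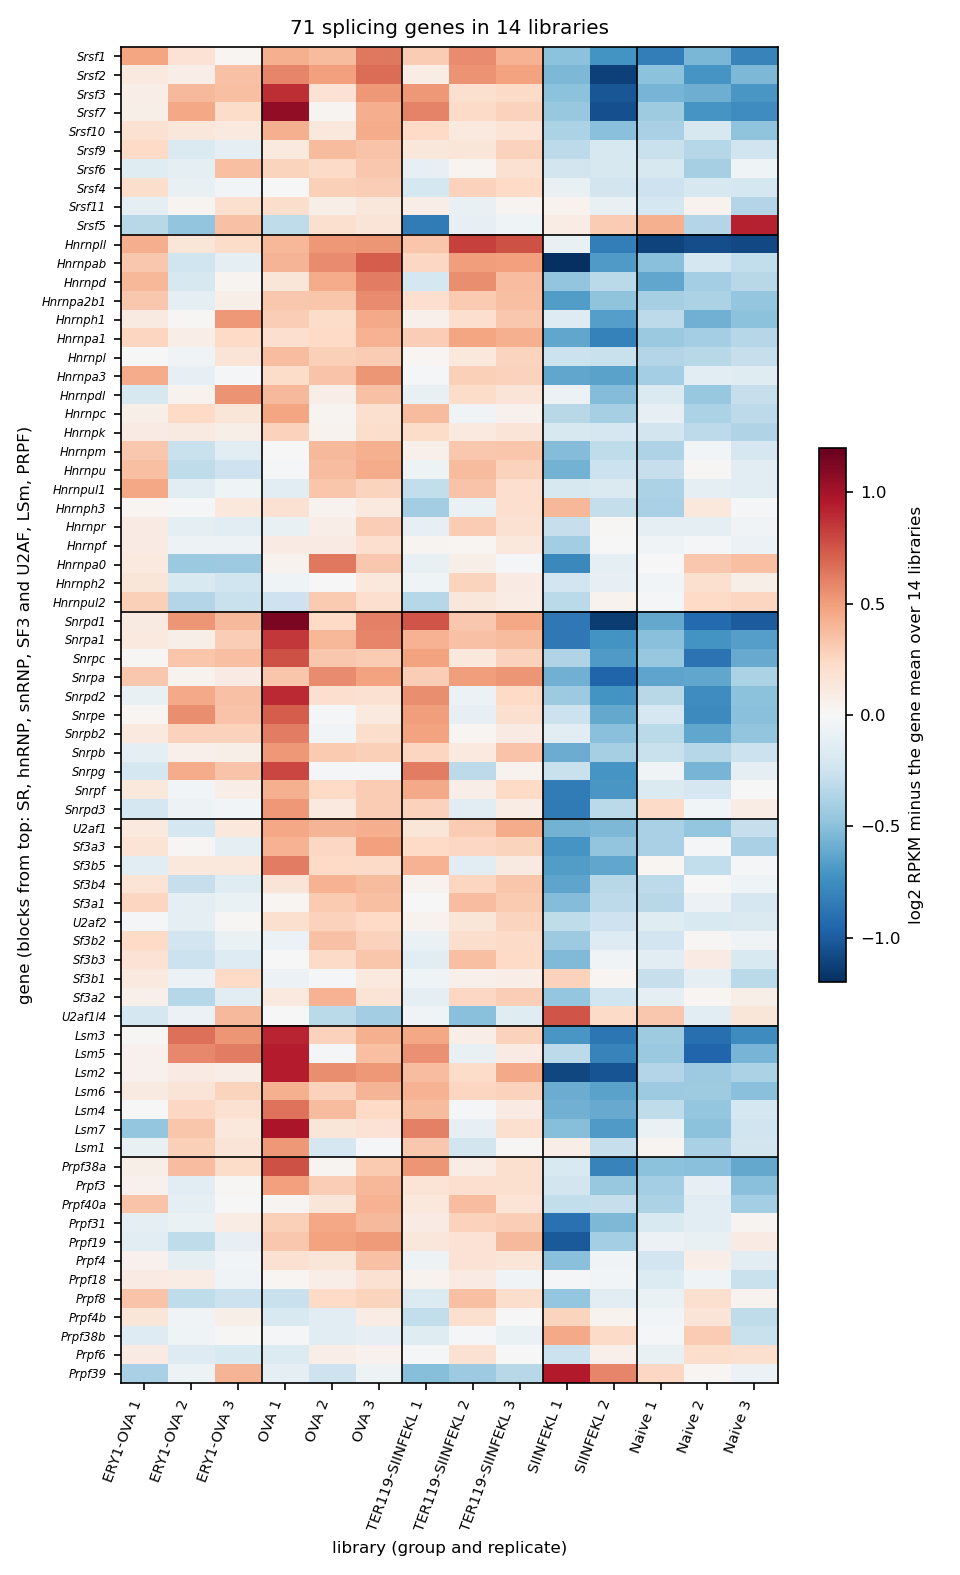
Deviation of each library's log2 RPKM from the gene's mean over 14 libraries (colour) for 71 splicing genes (rows, in 6 class blocks) in 14 libraries (columns, in 5 groups). The OVA columns are mostly red and the SIINFEKL and Naive columns mostly blue, and Prpf39 and U2af1l4 show the reverse in the SIINFEKL columns.

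TER119-SIINFEKL was set against free SIINFEKL to ask what erythrocyte targeting of the peptide changed. Of 71 members, 45 were called higher and 3 lower, against 20.4% and 17.0% of all genes, and the member median was 0.61 against -0.0013 over all genes. The largest rises were in Snrpd1 (1.51 ± 0.22, adjusted p = 0.00022), Lsm2 (1.41 ± 0.13, 5.9e-06) and Hnrnpab (1.36 ± 0.19, 0.00015), an hnRNP that also binds DNA. For Hnrnpab the libraries gave 236, 159 and 173 RPKM (ERY1-OVA), 249.97, 279 and 312 (OVA), 223, 267 and 266 (TER119-SIINFEKL), 80.8 and 118 (SIINFEKL) and 133, 163 and 154 (Naive). Both SIINFEKL libraries lay below all others, and the TER119-SIINFEKL and OVA libraries above all Naive ones. By class, 6 of 10 SR genes, 12 of 20 hnRNPs, 9 of 11 snRNP proteins, 7 of 11 of SF3a, SF3b and U2AF, 6 of 7 LSm genes and 5 of 12 PRPF genes were called higher. With quantile normalization 5 hnRNPs were higher. With any 1 library left out, 34 to 47 members were higher.

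The soluble antigens, whole protein and peptide, differed in the same direction. In OVA against SIINFEKL, 52 members were called higher and 3 lower, against 22.4% and 19.9% of all genes, with a median of 0.73 against -0.02 over all genes. Lsm2 (1.74 ± 0.13, adjusted p = 6.6e-07), Snrpd1 (1.65 ± 0.22, 8.6e-05) and Hnrnpab (1.52 ± 0.19, 4.7e-05) had the largest rises. With quantile normalization the hnRNPs higher in OVA against SIINFEKL numbered 7, against 15 without it. Both of these comparisons rest on the same 2 SIINFEKL libraries.

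The 3 members called lower in both comparisons were Prpf39, U2af1l4 and Prpf38b. Prpf39 (ENSMUSG00000035597, chr12:65036333-65063386, plus strand) encodes a protein whose yeast relative belongs to U1 snRNP. Prpf39 had 6.26, 7.86 and 10.9 RPKM in the ERY1-OVA libraries, 7.64, 6.93 and 7.88 in OVA, 5.76, 6.06 and 6.51 in TER119-SIINFEKL, 15.9 and 12.4 in SIINFEKL and 9.75, 8.34 and 7.83 in Naive. Both SIINFEKL libraries were above every other library, and the TER119-SIINFEKL group had the lowest mean. The fold changes were -1.20 ± 0.20 in TER119-SIINFEKL against SIINFEKL (SE, adjusted p = 0.00048) and -0.91 ± 0.20 in OVA against SIINFEKL (0.0025), and both calls held in every alternative. Prpf39 was also called lower in TER119-SIINFEKL than in Naive cells (-0.49 ± 0.18, adjusted p = 0.033). That call was lost without any 1 TER119-SIINFEKL library (-0.54 to -0.45), without Naive replicate 1 or 2 (-0.40 and -0.52) and with the length and GC correction (-0.38). Prpf39 overlaps Fkbp3 on the opposite strand in the annotation.

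U2af1l4 encodes a paralogue of U2af1, and its sign was opposite to that of U2af1 in both comparisons. The level of U2af1l4 was 38.5, 42.7 and 58.3 RPKM after ERY1-OVA, 44.6, 35.8 and 33.3 after OVA, 43.2, 31.4 and 40.4 after TER119-SIINFEKL, 75.6 and 52.3 after SIINFEKL and 55.9, 40.9 and 49.5 in Naive cells. The SIINFEKL libraries were high but SIINFEKL replicate 2 lay within the ERY1-OVA and Naive ranges. It changed by -0.72 ± 0.22 in TER119-SIINFEKL against SIINFEKL and -0.74 ± 0.22 in OVA against SIINFEKL. Without SIINFEKL replicate 1 both calls were lost (-0.46 and -0.48), and so was the first without TER119-SIINFEKL replicate 2 (-0.59) and the second without OVA replicate 3 (-0.65). U2af1l4 overlaps Psenen on the opposite strand and Gm49396 on its own in the annotation, and whether counting used strand is not given in the sources used here. Prpf38b changed by -0.43 ± 0.14 and -0.43 ± 0.14, and without SIINFEKL replicate 1 both calls were lost (-0.31 in both). The first was also lost without TER119-SIINFEKL replicate 1 (-0.40) or 3 (-0.43), and the second without OVA replicate 2 (-0.40) or 3 (-0.42) and with the length and GC correction (-0.32).

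For whole protein, targeting gave small differences that mostly pointed down. In ERY1-OVA against OVA, 0 members were called higher and 1, Lsm2, lower, where 0.408% of all genes were higher and 0.654% lower. At an unadjusted p under 0.05, 0 members were higher and 20 lower. The share of all genes at that unadjusted threshold was not computed, so these counts have no background beside them. The fold change was below 0 in 64 of 71 members, with a median of -0.21 against 0.00 over all genes, of which 50.2% lay above 0. All 10 SR genes and all 20 hnRNP genes were on the lower side. Lsm2 differed by -0.60 ± 0.11 (adjusted p = 0.03), with 28.5, 29.5 and 29.2 RPKM after ERY1-OVA against 53.1, 40.7 and 39.5 RPKM after OVA. The call was lost without OVA replicate 1 (-0.46), OVA replicate 2 (-0.66) or OVA replicate 3 (-0.68), and without TER119-SIINFEKL replicate 3 or any 1 ERY1-OVA library (-0.61 to -0.58). Without SIINFEKL replicate 1 or 2 the number lower was 3, and without TER119-SIINFEKL replicate 1 it was 2. Prpf19 had the lowest estimate, at -0.62 ± 0.14 (adjusted p = 0.051).

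No single member told the 2 targeted forms apart at this replication. In ERY1-OVA against TER119-SIINFEKL, limma called 0 members higher and 0 lower, where 0.0715% of all genes were higher and 0.49% lower. The estimates leaned down, with 51 of 71 members below 0, while 54.8% of all genes lay above 0. Their median was -0.14, against 0.02 over all genes. At an unadjusted p under 0.05, where the share of all genes was not computed, 1 was higher and 7 were lower. The smallest adjusted p was 0.26. Over the members, the lowest end of any 95% interval of the log2 difference was -0.79 and the highest 0.83. These are extremes, and for each member only differences inside its own interval could not be dismissed. For Hnrnpll the difference was -0.37 ± 0.17 (95% interval -0.74 to 0.00) and for Srsf1 -0.21 ± 0.13 (-0.49 to 0.08).

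The difference between both targeting effects was tested directly, as ERY1-OVA over OVA minus TER119-SIINFEKL over SIINFEKL, a comparison added after values had been seen. Whole protein was targeted through ERY1 and peptide through TER119, so antigen form and targeting part cannot be told apart here. Limma called 2 members higher and 47 lower, against 17.1% and 20.6% of all genes, and the member median was -0.86 against 0.02 over all genes. The largest differences were -2.01 ± 0.17 for Lsm2 (adjusted p = 6e-06), -1.94 ± 0.25 for Hnrnpab (0.00011) and -1.82 ± 0.30 for Snrpd1 (0.00052). The 2 on the other side were Prpf39 (1.32 ± 0.26, 0.0019) and U2af1l4 (1.01 ± 0.29, 0.015), and U2af1l4 was lost without SIINFEKL replicate 1. Cycling marker sums were 142 to 243 RPKM after TER119-SIINFEKL against 13.8 to 60.6 RPKM after SIINFEKL, and 189.7 to 276 RPKM after ERY1-OVA against 207 to 285 RPKM after OVA, and their part in this difference was not tested.

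**Figure D4:**
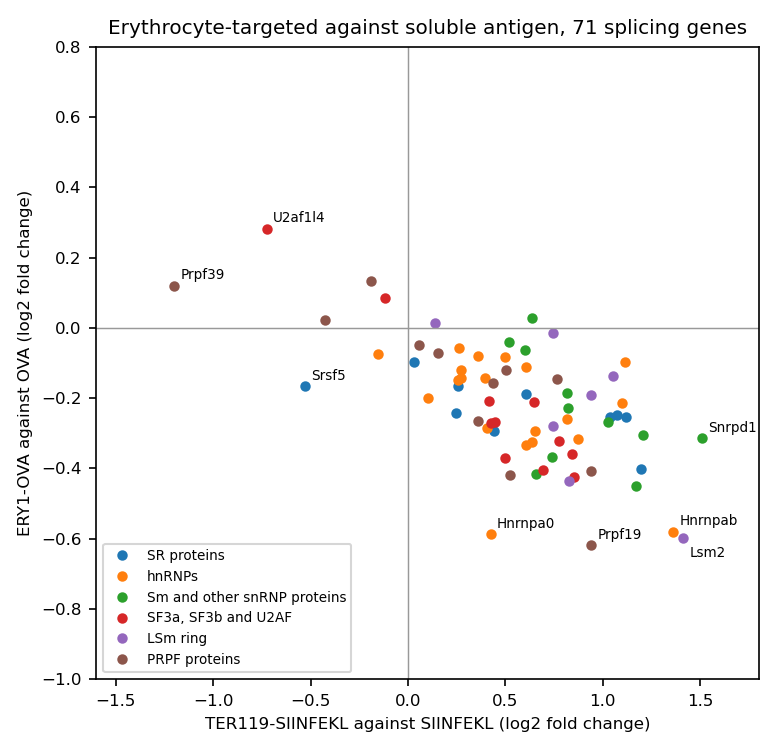
Log2 fold change of 71 splicing genes by class (colour) in ERY1-OVA against OVA (y axis) and in TER119-SIINFEKL against SIINFEKL (x axis). Most points lie right of 0 and below 0: 64 members are above 0 on the x axis and 64 below 0 on the y axis, with Prpf39 and U2af1l4 at the opposite corner.

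Splicing genes outside the naming rule were followed in 7 lists, with calls by limma as above. The SMN complex and its partners load Sm rings on snRNAs, and of 15 such assembly genes 5 were called higher after ERY1-OVA, 6 after OVA, 7 after TER119-SIINFEKL and 0 after SIINFEKL, where 2 were lower. At an unadjusted p under 0.05, 1 of the 15 was higher after SIINFEKL, and 0 were lower after the other 3 antigens. The shares of all genes called higher were 20.9%, 24.4%, 24.6% and 7.58% in the same order, and 8.34% were lower after SIINFEKL. Smn1, the central subunit of the SMN complex, rose by 0.68 ± 0.10 after OVA and 0.65 ± 0.10 after TER119-SIINFEKL. Strap rose by 0.63 ± 0.09 and 0.55 ± 0.09. Smn1 had 39.96, 46.7 and 45.2 RPKM in the ERY1-OVA libraries, 61.5, 53.4 and 52.5 in OVA, 55.3, 53.2 and 54.6 in TER119-SIINFEKL, 30.5 and 31.7 in SIINFEKL and 33.0, 37.9 and 33.3 in Naive. The Smn1 libraries after ERY1-OVA, OVA and TER119-SIINFEKL all lay above the rest. Of 13 further U1, U4, U5 and tri-snRNP genes, 3, 8, 7 and 0 were higher in the same 4 comparisons and 1 was lower after SIINFEKL. The 3 higher after ERY1-OVA and the 1 lower after SIINFEKL lie near the 20.9% and 8.34% of all genes. At an unadjusted p under 0.05, 0 of these 13 were higher after SIINFEKL. Among them Snrnp40 of the U5 particle rose by 0.52 ± 0.09 after ERY1-OVA, 0.72 ± 0.09 after OVA and 0.66 ± 0.09 after TER119-SIINFEKL, and Ppih, a cyclophilin of the U4 and U6 particle, by 1.32 ± 0.25, 1.56 ± 0.25 and 1.23 ± 0.25.

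Of 20 genes of the Prp19 complex and the catalytic helicases, 4 were higher and 2 lower after ERY1-OVA, 9 and 1 after OVA, 6 and 1 after TER119-SIINFEKL, and 0 and 0 after SIINFEKL (0 and 1 at an unadjusted p under 0.05). The higher counts after ERY1-OVA and TER119-SIINFEKL lie near the 20.9% and 24.6% of all genes, and the 9 after OVA stand beside 24.4%. The cyclophilin gene Ppil1 had the largest rise of the list. The level of Ppil1 was 44.7, 57.5 and 51.3 RPKM after ERY1-OVA, 82.4, 56.6 and 62.6 after OVA, 53.7, 45.3 and 53.6 after TER119-SIINFEKL, 23.6 and 16.7 after SIINFEKL and 18.4, 16.3 and 17.5 in Naive cells. Its fold changes were 1.55 ± 0.16 after ERY1-OVA, 1.93 ± 0.16 after OVA, 1.55 ± 0.16 after TER119-SIINFEKL and 0.19 ± 0.18 after SIINFEKL, the last with adjusted p = 0.5. Ddx39, a helicase gene of mRNA export, rose by 1.25 ± 0.16, 1.68 ± 0.16 and 1.30 ± 0.16 in the first 3. Of 9 exon junction complex genes, 2 were higher and 1 lower after ERY1-OVA, 6 and 1 after OVA, and 5 and 1 after TER119-SIINFEKL. After SIINFEKL the counts were 0 and 0 (1 and 2 unadjusted). The 2 higher after ERY1-OVA lie near the 20.9% of all genes. The 6 after OVA and the 5 after TER119-SIINFEKL stand beside 24.4% and 24.6%. Magoh, of the core of this complex, rose by 0.69 ± 0.19 after ERY1-OVA, 0.95 ± 0.19 after OVA and 0.79 ± 0.19 after TER119-SIINFEKL. Of 33 other splicing regulators, 9 were higher and 1 lower after ERY1-OVA, 10 and 5 after OVA, 10 and 5 after TER119-SIINFEKL, and 1 and 0 after SIINFEKL (2 and 3 unadjusted). These shares lie near those of all genes for the higher side, at 20.9% after ERY1-OVA, 24.4% after OVA and 24.6% after TER119-SIINFEKL. For the lower counts of all lists in this paragraph, the shares of all genes were 19.0%, 23.1% and 23.0% in the same order. After SIINFEKL 7.58% of all genes were higher and 8.34% lower.

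The last pair of lists held the minor spliceosome and the SR protein kinases. Of 10 minor spliceosome genes, 1 was higher and 3 lower after ERY1-OVA, 1 and 1 after OVA, and 1 and 2 after TER119-SIINFEKL. In these comparisons 20.9%, 24.4% and 24.6% of all genes were higher and 19.0%, 23.1% and 23.0% lower. After SIINFEKL the counts were 0 and 2 (1 and 3 unadjusted), where 7.58% of all genes were higher and 8.34% lower. Zrsr1, a relative of U2af1, was lower after ERY1-OVA (-1.32 ± 0.24), OVA (-1.09 ± 0.24) and TER119-SIINFEKL (-1.67 ± 0.24), at 1.34, 1.72 and 2.37 RPKM after ERY1-OVA, 1.83, 2.25 and 2.17 after OVA and 1.40, 1.38 and 1.38 after TER119-SIINFEKL against 3.93, 3.94 and 5.55 RPKM in Naive cells. After SIINFEKL, Zrsr1 was at 1.80 and 3.10 RPKM and also called lower (-0.90 ± 0.27, adjusted p = 0.039), a call lost without SIINFEKL replicate 1, any 1 Naive library, OVA replicate 2 or 3, ERY1-OVA replicate 2 or TER119-SIINFEKL replicate 2 or 3. Of 7 genes for SR protein kinases and SR import, 0 were higher and 0 lower after ERY1-OVA (0 and 0 unadjusted), 0 and 1 after OVA (0 and 1), 0 and 0 after TER119-SIINFEKL (0 and 3) and 1 and 0 after SIINFEKL (3 and 0). In TER119-SIINFEKL against SIINFEKL and in OVA against SIINFEKL, 5 of the 7 were lower and 0 higher (0 and 1 higher at an unadjusted p under 0.05), where 17.0% and 19.9% of all genes were lower. Clk4, a kinase that phosphorylates SR proteins, had 13.8, 18.1 and 19.7 RPKM after TER119-SIINFEKL and 21.8, 19.2 and 19.0 after OVA against 47.7 and 38.4 RPKM after SIINFEKL, with fold changes of -1.33 ± 0.25 and -1.10 ± 0.25. Its relative Clk1 changed by -1.29 ± 0.32 and -1.10 ± 0.32, calls that were lost without SIINFEKL replicate 1. Rbm5, a regulator of apoptosis gene splicing, was lower too, with -0.92 ± 0.11 in TER119-SIINFEKL against SIINFEKL and -0.85 ± 0.11 in OVA against SIINFEKL.

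**Figure D5:**
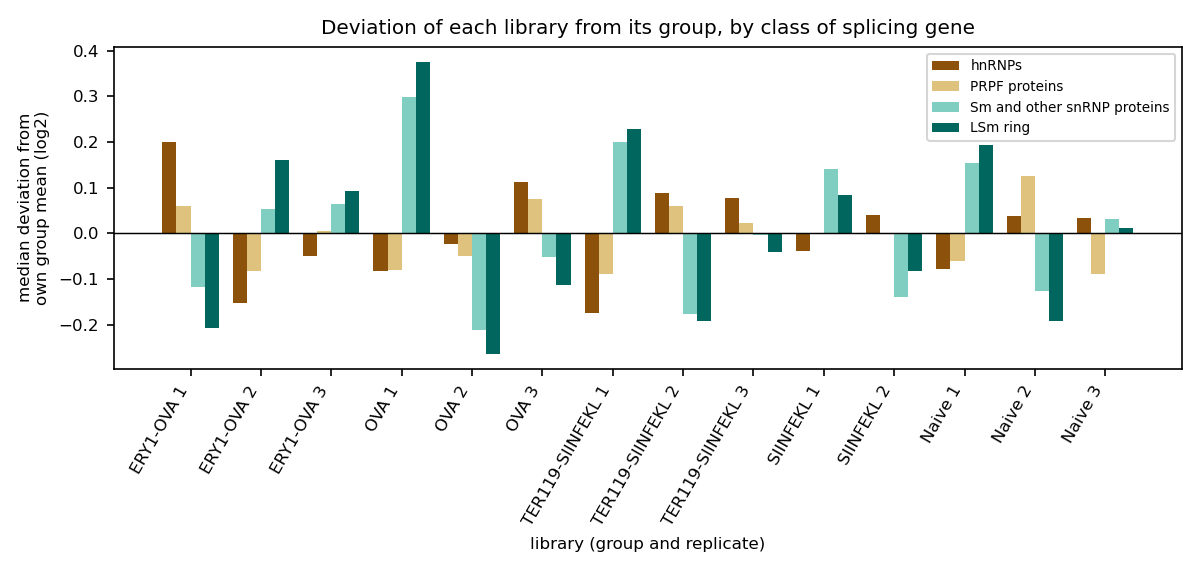
Median deviation of each class of splicing gene from its own group mean (y axis, log2) in each of 14 libraries (x axis), for 4 classes (bars). The LSm bars reach 0.38 in OVA replicate 1 and 0.23 in TER119-SIINFEKL replicate 1, while the hnRNP bars point the other way there.

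Within groups, single libraries shifted whole classes by small amounts. In TER119-SIINFEKL replicate 1 and OVA replicate 1 the snRNP proteins lay 0.20 and 0.30 above their group means and the LSm genes 0.23 and 0.38 above, while the hnRNPs lay 0.17 and 0.08 below. The classes also differ in length, with median exon lengths of 2618 bases for the snRNP proteins, 2753 for the LSm genes, 5897.5 for the hnRNPs and 6310.0 for the PRPF genes. Without both libraries the members higher and lower than Naive numbered 31 and 0 after ERY1-OVA, 47 and 0 after OVA, 43 and 0 after TER119-SIINFEKL and 3 and 8 after SIINFEKL. With a correction for gene length and GC content they were 34 and 0, 53 and 1, 44 and 1, and 3 and 6 in the same order. Quantile normalization, which forces all libraries to a common distribution, lowered them to 23 and 2, 34 and 1, 31 and 2, and 3 and 6, with member medians of 0.17, 0.34, 0.26 and -0.11. Exons of 24 of the 72 members overlap another annotated gene, 4 on the same strand and 21 on the opposite strand, with overlap between these counts.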

How the data were processed

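The deposited table holds log2 RPKM per gene for 14 libraries. Its log base is not stated: the authors' deposited values give totals (RPKM times exon length in kilobases) of 1763893 to 2042615 per library when read as base 2, against 22637275 to 37605390 with the natural base, so base 2 was used. Listed without roles in the submitters' processing notes are the tools edgeR, STAR (2.4.2) and bcl2fastq (2.17.1.14) and both mm10 and GRCm38 as genome builds. Counts were not used here and the depth of each library is unknown.

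Genes with a mean of at least 1 RPKM were kept, which removed 313. A linear model of 5 group means was fitted to the log2 values of all 14 libraries with limma 3.58.1 in R 4.3.3, with an intensity trend (9 residual and 4.6 prior degrees of freedom), and p-values were adjusted by Benjamini-Hochberg over all genes per comparison. The fit was tested on simulated data, where in OVA against Naive it recovered 79% of 100 genes changed by 1 and 30% of 100 changed by 0.5 on the log2 scale. It made 4 false calls among the unchanged genes. The simulation changed few genes and drew independent noise around the Naive mean, so its rates need not hold for the measured libraries. Gene coordinates and exon lengths came from a GRCm38 annotation that matched 10027 genes and missed 79. The labels give replicate numbers with no stated meaning. In TER119-SIINFEKL and Naive the deviations of same-numbered libraries correlated at 0.26, 0.32 and 0.30, so blocked values are given as an alternative. The block covered all 5 groups, also OVA and ERY1-OVA, whose same-numbered libraries correlated at -0.44, -0.44 and -0.08. Whether the numbers mark a true pairing is unknown. Alternatives changed the normalization, a correction for length and GC content, the pseudocount, the filter, the trend, the libraries in the fit and a replicate block.

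The members and gene lists were chosen with earlier results of these data known. Named genes were the 3 with the smallest moderated F p-value per class, the 3 largest called rises and falls per comparison, a core list, and up to 3 per pathway list. Srsf5, Srsf10, Srsf12, Hnrnpf, Snrpc, Snrpf, Snrpg, Sf3b5, Lsm1 and Prpf38a were named after their values were seen. Figures were drawn with matplotlib 3.10.9, and summaries made with numpy 2.4.6 and pandas 2.3.3 under Python 3.11.15.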

Additional observations from a re-analysis of the deposited data

Results flagged for a closer look

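The effect of erythrocyte targeting on splicing genes differed between the whole protein pair and the peptide pair of groups. An interaction term in limma (ERY1-OVA over OVA minus TER119-SIINFEKL over SIINFEKL) tested this and was added after values had been seen. The protein was targeted through ERY1 and the peptide through TER119, so antigen form and targeting part cannot be told apart. Of 71 members 47 were lower and 2 higher in this difference, where 20.6% of all genes were lower and 17.1% higher. The median was -0.86 on the log2 scale over the members and 0.02 over all genes. The number lower was 38 to 47 and the number higher 1 to 3 with any 1 library left out. The contrast rests on 2 SIINFEKL libraries, in which Mki67 stood at 21.2 and 2.89 RPKM.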

How the results depend on the processing

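Of 3407 alternative values for 139 calls of named genes, 3229 kept their direction and stayed past the threshold, 178 kept their direction and lost it, and 0 reversed. Many of these alternatives could not change a fold change, only its p-value. They are the filter, the trend, a fit of fewer groups and a left-out library of a group not compared. The absence of reversals was thus largely fixed in advance. Of 442 alternative counts of members, 393 stayed within 1.5 times. Those that moved were mostly small. Members lower than Naive numbered 2 after ERY1-OVA, 1 after OVA and 2 after TER119-SIINFEKL with quantile normalization, 1 after OVA with the length and GC correction, and 0 after TER119-SIINFEKL without OVA replicate 1 and TER119-SIINFEKL replicate 1. With only the groups compared, 1 was lower after ERY1-OVA, and after SIINFEKL 0 were higher and 2 lower. Without the SIINFEKL group 1 was lower after ERY1-OVA. With no trend 1 was higher after SIINFEKL. In ERY1-OVA against OVA the number lower was 5 with the length and GC correction, 2 with median-of-ratios rescaling, a pseudocount of 1 or a filter at 3 RPKM, 0 without both libraries and 3 without the SIINFEKL group. The cause of these shifts was not tested.

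With 1 library left out in turn, the members higher than Naive numbered 24 to 31 after ERY1-OVA, 39 to 49 after OVA, 34 to 40 after TER119-SIINFEKL and 0 to 3 after SIINFEKL, and those lower 0 to 1, 0 to 0, 0 to 1 and 1 to 8. The number lower was 0 to 3 in ERY1-OVA against OVA, 1 to 3 in TER119-SIINFEKL against SIINFEKL and 1 to 3 in OVA against SIINFEKL. In the interaction 1 to 3 were higher. A left-out SIINFEKL library leaves 1, which the fit assumes to vary like the other groups.

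Apart from TER119-SIINFEKL and Naive, no compared groups had 3 same-numbered pairs that all correlated over 0.1. OVA and TER119-SIINFEKL, which were not compared with each other, had 0.67, 0.29 and 0.25. Over all groups, deviations of same-numbered libraries had a median correlation of 0.13 in 26 pairs (-0.44 to 0.67), with 14 over 0.1, and those of differently numbered libraries -0.09 in 52 pairs, with 15 over 0.1. With the replicate block, members higher and lower than Naive numbered 28 and 0 after ERY1-OVA, 47 and 0 after OVA, 39 and 2 after TER119-SIINFEKL and 1 and 6 after SIINFEKL. In TER119-SIINFEKL against Naive the call of Srsf5 was the only one among the members that the block changed. The limits are the 2 SIINFEKL libraries, the unknown depth, overlapping genes and pseudogenes whose reads may be shared, and a fold change in RPKM that is relative to each library's total.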
